A study of Mus musculus with 18 samples.

Results

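The genes described here are 44 genes of the G2/M transition and mitosis, a list of cyclins, mitotic kinases, checkpoint, kinetochore, spindle and cytokinesis genes, and all 44 were found among the 46073 genes of the count table. They were measured by total RNA sequencing of donor T cells taken from the spleens of transplanted mice. Donor T cells were either knocked out for Wapl (KO), whose product releases the cohesin ring from chromosomes, or had the intact gene (WT). The members were named one by one by their known function in G2 and mitosis, not by a threshold on measured values. Earlier results of these data were known when they were chosen.

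The libraries formed 4 groups of 3, all from day 7 after transplantation. Allogeneic KO and allogeneic WT libraries held KO or WT donor T cells from CByJ.SJL(B6)-Ptprca/J recipients, also described as BALB/c, which received 8 Gy, 5000000 T cell depleted marrow cells and 1000000 donor T cells. Syngeneic KO and syngeneic WT libraries held such cells from B6.SJL-Ptprca Pepcb/BoyJ recipients, which received 9.5 Gy, 5000000 marrow cells and 8500000 donor T cells. Donors were C57BL/6 mice carrying CD45.2, and the mice are described as females of 8 to 12 weeks. The sort kept viable cells with CD3 and the donor marker CD45.2 on their surface, and each library pooled 2 to 4 mice. The labels give neither the driver of the deletion nor the deleted exons, and the cell type field of the syngeneic KO samples names the strain of the allogeneic recipients, although their transplant field says syngeneic. Recipient strain, radiation dose and the number of T cells given all differ between allogeneic and syngeneic groups and cannot be told apart in these comparisons.

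A dividing cell enters mitosis when cyclin B binds Cdk1 and Cdc25 phosphatases remove the phosphates that hold the kinase inactive. The Aurora and Polo-like kinases then build the spindle, the kinetochores attach chromosomes to it, and the spindle checkpoint holds back the anaphase-promoting complex until every chromosome is attached. Most of these genes are transcribed late in the cell cycle, under the DREAM complex in resting cells and under MYBL2, the MuvB core and FOXM1 in cycling cells. T cells that meet their antigen divide rapidly, so in T cells these transcripts are widely used as a sign of cycling. In bulk RNA, more cells in G2 or mitosis and more RNA per such cell cannot be told apart.

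The promoters of these genes are known for a pair of short elements. The cell cycle homology region, TTTGAA, is the site that DREAM and the MYBL2-MuvB complex read, and the CCAAT box is the site of NF-Y. RefSeq promoter windows of the build GRCm38.p6, from 250 bases before to 50 bases after the gene start, were at hand for 35 of the 44 genes, in 38 windows. TTTGAA, read on either strand (TTTGAA or TTCAAA), stood in 28 of the 38 windows, or 73.7%, against 17.9% of all 32817 windows. CCAAT on either strand (CCAAT or ATTGG; each motif was searched on its own, and matches of both may share end bases) stood in 29 windows, or 76.3%, against 37.4% of all windows. Both motifs stood in 25 windows, or 65.8%, against 6.94% of all. The matches were placed unevenly: 44.7% of the windows had TTTGAA in bases 1 to 50 after the start, against 2.25% of all windows, while CCAAT lay before the start, in 50% of windows within bases −50 to −1 and in 47.4% within −100 to −51, against 9.02% and 12.5% of all. A match describes the letters of the window and does not show binding. Some genes have more than 1 window, and these overlap. Aurkb, Foxm1, Dlgap5, Kif20a, Ccna2, Spc24, Cdc25c, Incenp and Tpx2 were not among the windows.

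**Figure D1:**
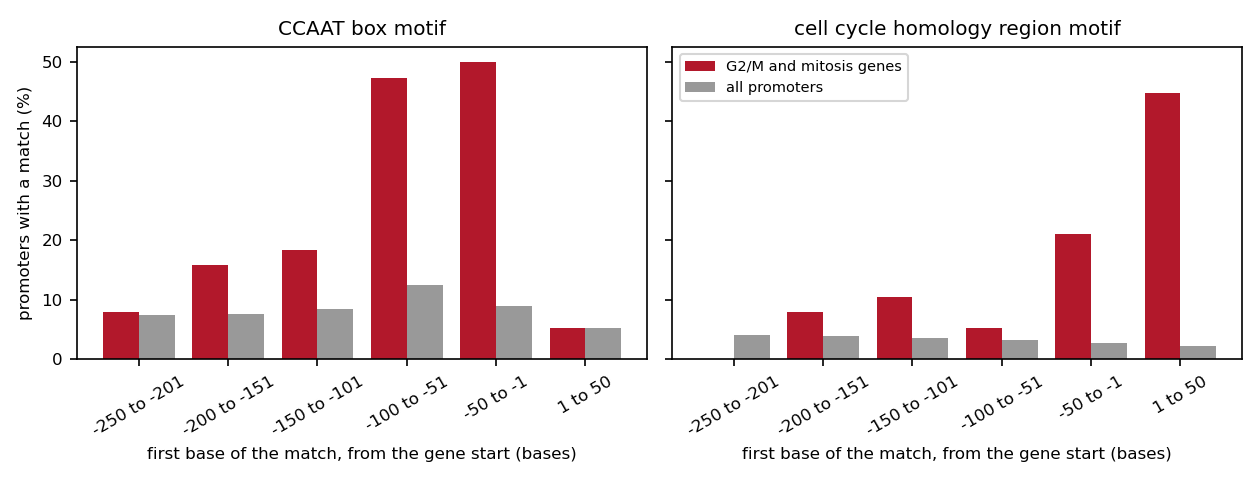
Share of promoter windows (vertical axis, %) with a CCAAT box (left) or a TTTGAA match (right) starting in each 50-base bin from the gene start, for the 38 windows of the G2/M and mitosis genes (red) and all 32817 windows (grey). The CCAAT matches of the mitotic genes pile up before the start, reaching 50% in the last bin before it, and the TTTGAA matches just after it, at 44.7%.

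The promoters below belong to the 6 genes with the smallest p between allogeneic WT and syngeneic WT libraries that hold either motif in their window, leaving out genes for which no sequence is given. Each stretch runs from 120 bases before to 30 bases after the RefSeq start, 5′ to 3′ on the gene's strand, with the matches to either motif in capitals. The stretches are chr2:131186828-131186977 (plus strand) for Cdc25b, chr5:30666766-30666915 (plus) for Cenpa, chr9:70421525-70421674 (minus) for Ccnb2, chr4:117178743-117178892 (minus) for Kif2c, chr4:118437314-118437463 (minus) for Cdc20 and chr7:131560250-131560399 (plus) for Bub3.
Cdc25b: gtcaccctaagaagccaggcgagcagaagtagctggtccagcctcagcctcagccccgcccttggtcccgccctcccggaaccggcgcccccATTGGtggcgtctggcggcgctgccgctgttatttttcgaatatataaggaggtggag
Cenpa: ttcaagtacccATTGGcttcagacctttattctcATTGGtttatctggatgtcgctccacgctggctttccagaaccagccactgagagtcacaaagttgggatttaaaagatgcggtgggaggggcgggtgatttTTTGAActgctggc
Ccnb2: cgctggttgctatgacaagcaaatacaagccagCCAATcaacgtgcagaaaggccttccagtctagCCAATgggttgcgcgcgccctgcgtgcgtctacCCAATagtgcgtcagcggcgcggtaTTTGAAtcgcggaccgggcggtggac
Kif2c: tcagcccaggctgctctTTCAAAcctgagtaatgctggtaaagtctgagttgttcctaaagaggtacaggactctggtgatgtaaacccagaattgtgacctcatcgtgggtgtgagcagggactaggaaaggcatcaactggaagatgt
Cdc20: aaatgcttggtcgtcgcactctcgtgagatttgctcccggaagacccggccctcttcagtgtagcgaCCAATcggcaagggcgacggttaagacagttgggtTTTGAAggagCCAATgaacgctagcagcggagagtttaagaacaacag
Bub3: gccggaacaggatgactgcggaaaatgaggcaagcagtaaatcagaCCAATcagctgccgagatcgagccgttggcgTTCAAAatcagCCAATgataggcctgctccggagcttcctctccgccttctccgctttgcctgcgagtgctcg
Cenpa, Ccnb2, Cdc20 and Bub3 carried both motifs in these stretches, with 2, 3, 2 and 2 CCAAT boxes. Of the motifs searched, Cdc25b carried CCAAT alone and Kif2c TTTGAA alone. Only exact matches to these letters were searched, so variant spellings of either element would not be found. The RefSeq start used for Kif2c lies inside the gene model of GENCODE M21, whose 5′ end is at base 117182639, so that stretch need not be the promoter used in these cells.

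Library totals lay between 45965659 and 89007100 counts, and 18447 genes passed the filter on low counts, all 44 mitotic genes among them. Levels are given as CPM, the counts in each 1000000 of a library total scaled by the trimmed mean of M values. Wapl itself, the targeted gene, stood at 140.0 ± 14.6 CPM in allogeneic KO and 161.0 ± 6.80 in allogeneic WT, and at 134.6 ± 6.29 in syngeneic KO and 187.8 ± 20.8 in syngeneic WT (SD, n = 3 each). It was lower in syngeneic KO (edgeR adjusted p = 0.0368) and did not pass the test in allogeneic KO (adjusted p = 0.963). These are counts over the whole gene and keep reads outside a deleted part. T cell markers were present in every library, with Cd3e between 359 and 715 CPM. The 16 T cell genes summed to 5457 to 7896 CPM in allogeneic KO and 5793 to 6398 in allogeneic WT. In syngeneic KO their sum was 4826 to 7789 CPM, and in syngeneic WT 4309 to 5877. Syngeneic KO replicate 1 stood apart from the other libraries on the second principal component. Markers of red cell precursors stood out in 1 group: the 18 erythroid genes summed to 106 to 141 CPM in allogeneic KO, 65.6 to 238 in allogeneic WT, 105 to 311 in syngeneic KO and 2647 to 6496 in syngeneic WT, with none at 0 in any library. Summed markers of 20 myeloid genes were 325 to 594 CPM in allogeneic KO, 531 to 763 in allogeneic WT, 41.2 to 398 in syngeneic KO and 269 to 832 in syngeneic WT, with up to 3 genes at 0. Platelet markers (9 genes) summed to 204 to 272, 162 to 233, 78.5 to 88.6 and 93.8 to 102 CPM and NK cell markers (8 genes) to 744 to 1114, 684 to 725, 450.1 to 629 and 369 to 475 CPM in the same order of groups. B cell markers (20 genes) summed to 517 to 3301, 1274 to 1885, 522 to 2822 and 573 to 1176 CPM. The part of these cells in the results below was not tested. Y-linked genes also split the genotypes, with 4 of them summing to 31.4 to 138 CPM in the 6 KO libraries and 0.733 to 1.75 CPM in the 6 WT libraries, so genotype and the sex of the donors cannot be told apart.

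All 44 genes were expressed, over a wide range of levels. Per kilobase of exon, and averaged over the 12 libraries, Mki67 was highest at 129.8 CPM per kb, followed by Top2a at 72.3, Ccnb2 at 67.5 and Cdc25b at 62.0. Mki67 encodes Ki-67, which coats mitotic chromosomes, and Top2a encodes the topoisomerase that untangles sister DNA. The lowest were Anln at 4.78, Ttk at 3.88 and Cdc25c at 2.87 CPM per kb.

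Summed over the 44 genes, the level was 8697, 6083 and 5959 CPM in allogeneic KO and 6455, 5158 and 5383 CPM in allogeneic WT. In syngeneic KO the sum was 5098, 4967 and 5172 CPM, and in syngeneic WT 4039, 5432 and 5793 CPM. Allogeneic KO was above syngeneic KO in every library, while allogeneic WT and syngeneic WT overlapped. Group means of the sum were 6913 ± 1546 CPM in allogeneic KO, 5666 ± 693 in allogeneic WT, 5079 ± 104 in syngeneic KO and 5088 ± 926 in syngeneic WT (SD, n = 3). A single gene, Mki67, made up 14.7 to 24.1% of the sum in allogeneic KO, 19.3 to 23.2% in allogeneic WT, 18.4 to 23.2% in syngeneic KO and 25.3 to 31.8% in syngeneic WT. Without it the group means were 5497, 4438, 3990 and 3596 CPM in the same order of groups, so that the sum of the other 43 genes was on average highest in allogeneic KO and lowest in syngeneic WT.

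**Figure D2:**
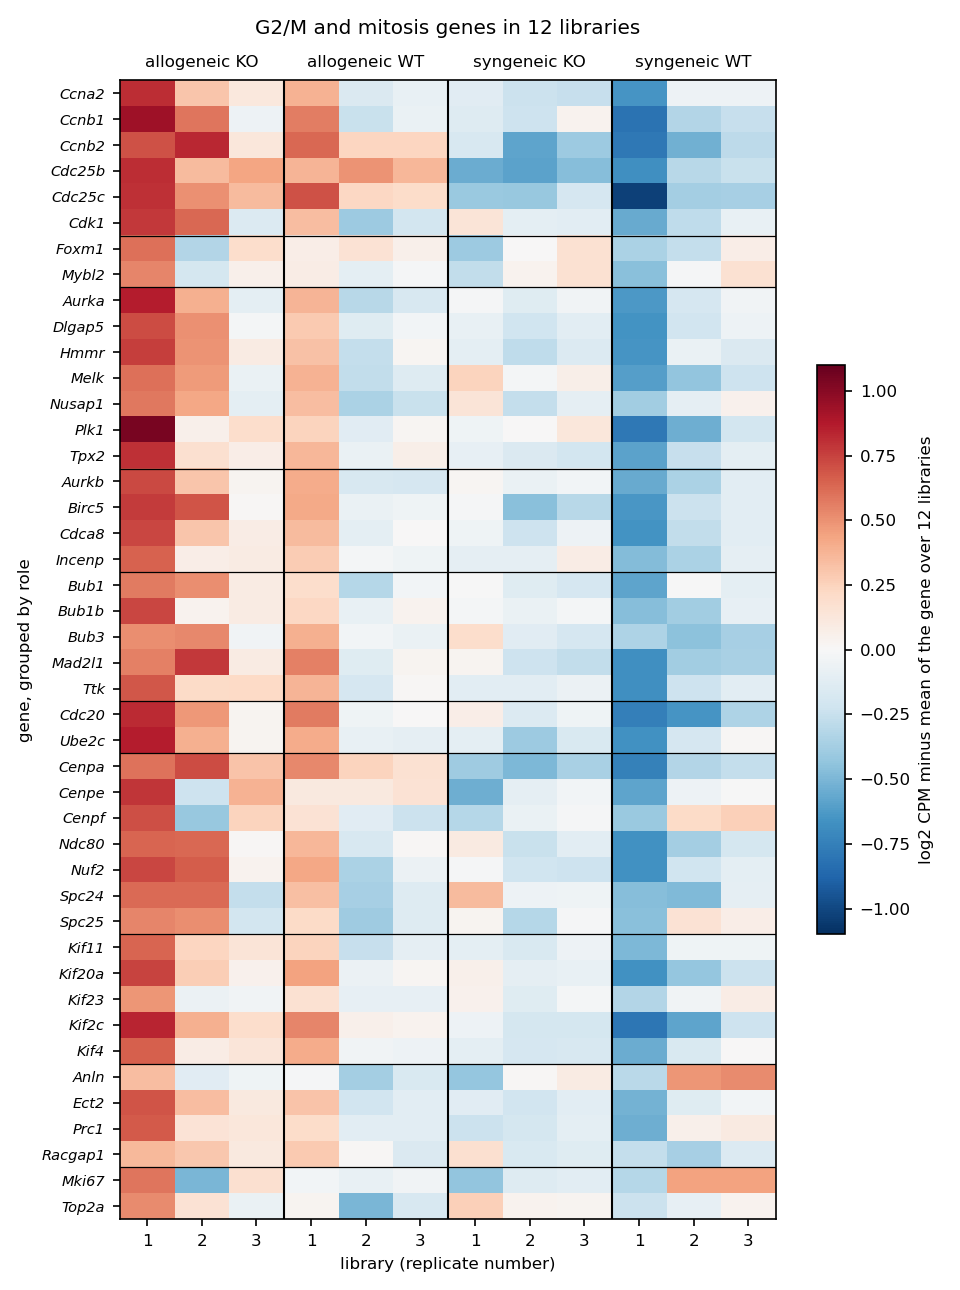
Level of each of the 44 genes (rows, grouped by role) in each of the 12 libraries (columns, by group and replicate), as log2 CPM minus the gene's mean over all libraries. Allogeneic KO replicate 1 is the highest library of its group for 39 genes and syngeneic WT replicate 1 the lowest of its group for 41.

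The genes moved together from library to library. Within allogeneic KO, replicate 1 was the highest of the 3 libraries for 39 of the 44 genes, and within allogeneic WT replicate 1 was the highest for 41. Syngeneic WT replicate 1 was the lowest of its group for 41 genes, and syngeneic WT replicate 3 the highest for 39. After each group's mean was taken out on the log2 scale, a gene's correlation with the mean of the other 43 had a median of 0.90 over the 12 libraries, and 31 genes, or 70.5%, were above 0.8. Among the other 18403 tested genes the correlation with the mitotic mean had a median of 0.03, and 1.43% were above 0.8. The tightest were Cdca8, which encodes borealin of the chromosomal passenger complex, and Ect2, the exchange factor that starts the cleavage furrow, both at 0.99. Foxm1, one of the transcription factors of the programme, was the loosest at 0.39, followed by Cenpe, a kinetochore motor, at 0.46 and Mki67 at 0.54. These correlations share libraries and are a description. Libraries also differed in how level varied with transcript length: the deviation from the group mean correlated with log2 exon length at −0.37 over the 44 genes in allogeneic KO replicate 2 (−0.60 over 8321 coding genes) and at 0.55 in allogeneic KO replicate 3 (0.59 over the coding genes). The part of transcript length in the results below was not tested.

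The comparisons of allogeneic with syngeneic libraries asked how donor T cells that meet foreign tissue differ from those that do not. In KO cells all 44 genes were higher on average in allogeneic libraries (48.5% of all tested genes were), and 13 passed the test. In WT cells 39 were higher on average (48.3% of all tested genes were) and 9 passed. Cdc25b, Cenpa, Ccnb2 and Cdc25c had the 4 smallest p in both. In KO they were 2.11-fold, 1.95-fold, 1.94-fold and 1.86-fold higher in allogeneic libraries, and in WT 1.75-fold, 1.68-fold, 1.87-fold and 1.93-fold. No gene of the list was called lower in either. The test was edgeR's quasi-likelihood F test, two-sided, with Benjamini-Hochberg adjustment over the 18447 genes, and an adjusted p under 0.05 was a call.

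The KO comparison called 13 genes higher (29.5%) where 13.2% of all tested genes were called higher, and called none lower where 11.2% of all were. Its WT counterpart called 9 higher (20.5%) where 16.4% of all tested genes were called higher, and none lower where 15.9% were. DESeq2 called 21 of the 44 genes higher in KO, where it called 16.3% of all genes higher, and 9 in WT, where it called 18.7%. The median log2 fold change of the 44 genes was 0.50 in KO, against −0.02 over all tested genes, and 0.34 in WT, against −0.03. Without allogeneic KO replicate 1 the KO median was 0.31, and without allogeneic WT replicate 1 the WT median was 0.20. In KO, all 3 allogeneic libraries lay above all 3 syngeneic ones for 22 genes (50%, and 17% of all tested genes), and in WT for 18 genes (40.9%, and 28.2% of all). These 2 comparisons share no library. Of the genes called, 6 were called in both (Ccnb2, Cdc25b, Cdc25c, Cenpa, Kif2c and Mad2l1), which is 46.2% of those called in KO and 66.7% of those called in WT. Over all tested genes, 2007 were called higher in both, or 82.3% of those called higher in KO and 66.4% of those called higher in WT. A call in only one of the comparisons does not show a difference between them, and the test of that difference called none of the 44 genes.

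**Figure D3:**
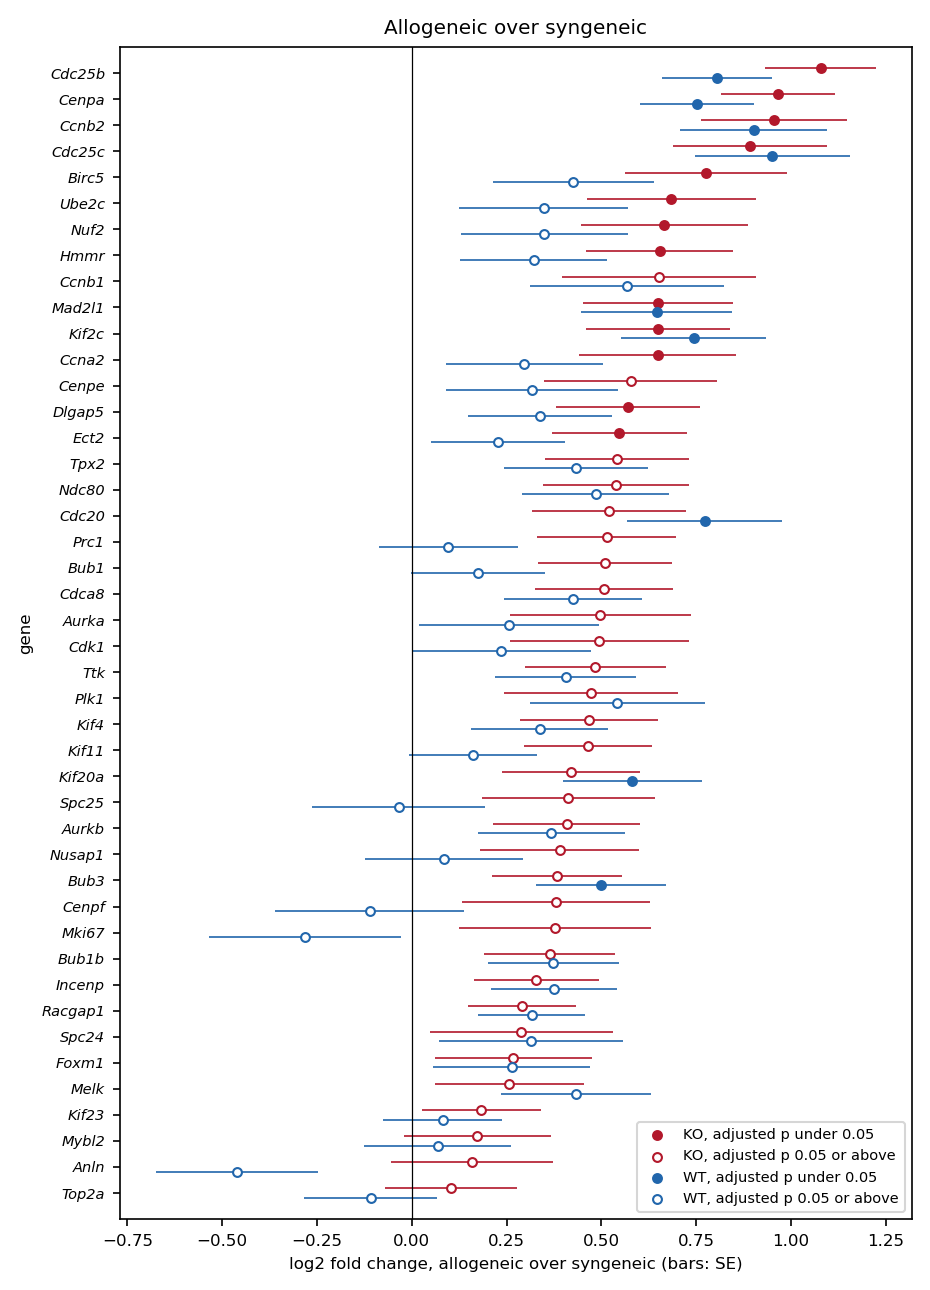
Log2 fold change of allogeneic over syngeneic libraries (horizontal axis, bars are SE) for the 44 genes in KO (red) and WT (blue), sorted by the KO value; filled points have an edgeR adjusted p under 0.05. All KO values lie above 0, and in WT 5 genes, Anln and Mki67 among them, lie below it.

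Among the cyclins, Cdk1 and its phosphatases, 4 of 6 genes rose in allogeneic KO and 3 of 6 in allogeneic WT. Beside the counts by role, here and below, 13.2% of all tested genes were called higher in KO and 16.4% in WT. Each role holds few genes, and roles were not tested against each other. Cdc25b (ENSMUSG00000027330, chr2:131186949-131198497, plus strand, GRCm38), a phosphatase that activates Cdk1 at the start of mitosis, had 383, 278 and 294 CPM in allogeneic KO, 282, 307 and 280.3 in allogeneic WT, 149, 145 and 158 in syngeneic KO and 137, 176 and 184 in syngeneic WT. Every allogeneic library lay above every syngeneic one. The log2 fold change was 1.08 ± 0.15 (SE) in KO (edgeR adjusted p = 0.000157) and 0.81 ± 0.15 in WT (adjusted p = 0.00103). Ccnb2 (ENSMUSG00000032218, chr9:70407692-70421547, minus strand), a B-type cyclin that partners Cdk1, had 157, 172 and 106 CPM in allogeneic KO, 150.5, 114 and 114 in allogeneic WT, 86.0, 64.9 and 73.3 in syngeneic KO and 56.2, 67.1 and 79.4 in syngeneic WT. Its allogeneic and syngeneic libraries did not overlap either, and it rose by 0.96 ± 0.19 in KO (edgeR adjusted p = 0.00305) and by 0.90 ± 0.19 in WT (adjusted p = 0.00336). Cdc25c, a sister phosphatase of Cdc25b at a far lower level, had 23.0, 18.7 and 16.8 CPM in allogeneic KO, 21.5, 15.5 and 15.2 in allogeneic WT, 9.97, 9.90 and 11.6 in syngeneic KO and 6.49, 10.2 and 10.3 in syngeneic WT, with no overlap between allogeneic and syngeneic libraries. Its log2 fold changes were 0.89 ± 0.20 in KO (edgeR adjusted p = 0.00649) and 0.95 ± 0.20 in WT (adjusted p = 0.00339).

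Ccna2, the cyclin of S and G2 phase, had 302, 213 and 186 CPM in allogeneic KO, 224, 154 and 163 in allogeneic WT, 157, 146 and 144 in syngeneic KO and 109.6, 165 and 166 in syngeneic WT. It rose in KO, by 0.65 ± 0.21 (edgeR adjusted p = 0.0373), and in WT had 0.30 ± 0.21 (adjusted p = 0.291), where syngeneic WT replicates 2 and 3 lay above 2 of the allogeneic libraries. Ccnb1, the main mitotic cyclin, had log2 fold changes of 0.65 ± 0.26 in KO and 0.57 ± 0.26 in WT, and its adjusted p was 0.0827 and 0.108 by edgeR. Cdk1, the kinase itself, had 132, 119 and 69.1 CPM in allogeneic KO, 97.2, 58.4 and 66.7 in allogeneic WT, 84.9, 71.4 and 70.8 in syngeneic KO and 52.5, 63.5 and 72.6 in syngeneic WT. Allogeneic KO replicate 3 lay below all syngeneic KO libraries, and Cdk1 passed in neither comparison (edgeR adjusted p = 0.149 in KO and 0.471 in WT).

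**Figure D4:**
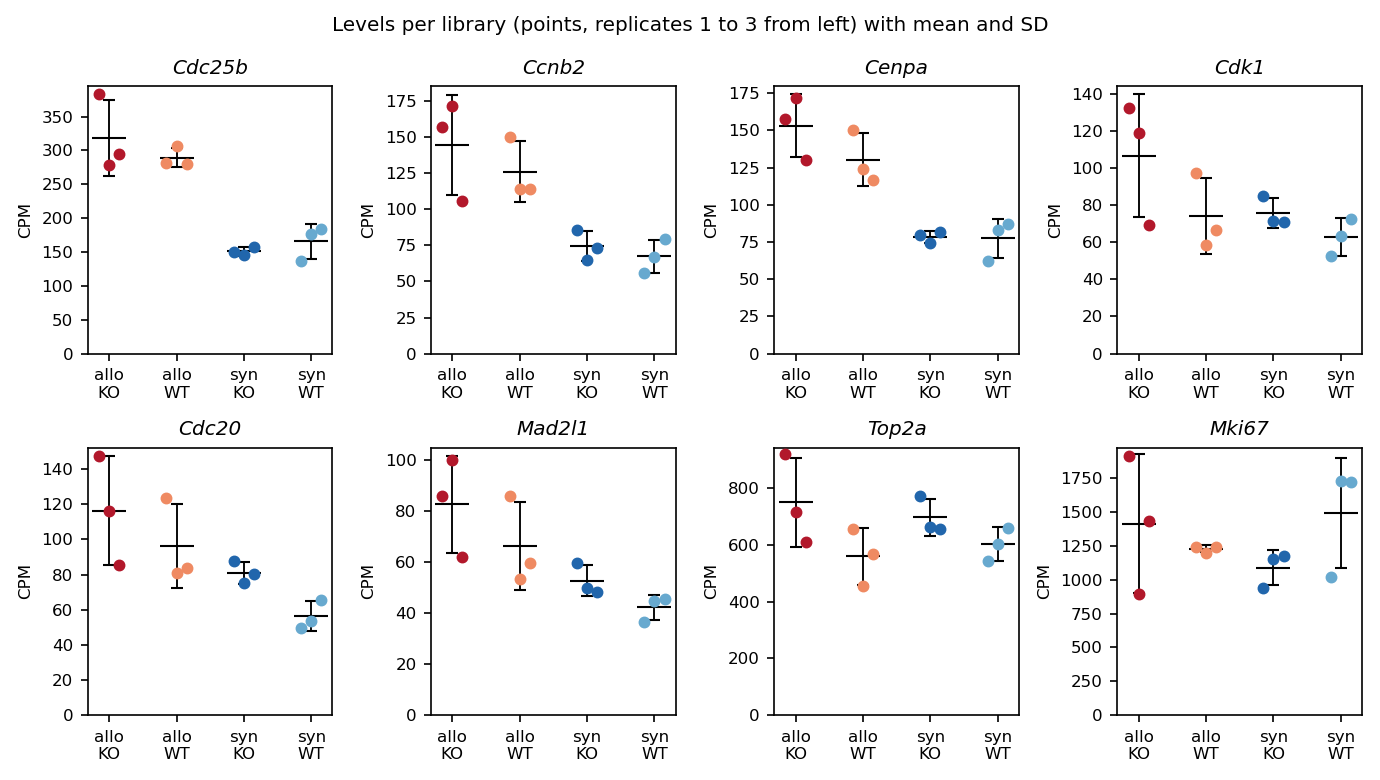
CPM per library (points, linear axis from 0) with the mean and SD (n = 3) of 8 genes in allogeneic KO, allogeneic WT, syngeneic KO and syngeneic WT. Cdc25b, Ccnb2 and Cenpa separate allogeneic from syngeneic libraries, while for Mki67 syngeneic WT replicates 2 and 3 lie above every allogeneic WT library.

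At the centromere, 2 of 7 genes rose in KO and 1 in WT, where 13.2% and 16.4% of all tested genes were called higher. Cenpa (ENSMUSG00000029177, chr5:30666777-30674830, plus strand), the histone H3 variant that marks centromeres, had 158, 171 and 129.9 CPM in allogeneic KO, 150.4, 124 and 117 in allogeneic WT, 79.4, 74.1 and 81.6 in syngeneic KO and 62.2, 83.2 and 86.9 in syngeneic WT. The 6 allogeneic libraries all stood above the 6 syngeneic ones, and Cenpa rose by 0.97 ± 0.15 in KO (edgeR adjusted p = 0.000478) and 0.75 ± 0.15 in WT (adjusted p = 0.00208). Nuf2, a subunit of the NDC80 complex that grips microtubules, rose in KO by 0.67 ± 0.22 (edgeR adjusted p = 0.0436). Its partners in that complex, Ndc80, Spc24 and Spc25, had log2 fold changes of 0.54, 0.29 and 0.41 in KO and 0.49, 0.31 and −0.03 in WT, and passed in neither. Cenpf, a large kinetochore and nuclear matrix protein with the highest CPM of this role, had 210.3, 96.3 and 153 CPM in allogeneic KO, 143, 118 and 109 in allogeneic WT, 103, 122 and 127 in syngeneic KO and 96.5, 148 and 154 in syngeneic WT. Its groups overlapped in both comparisons, at 0.38 ± 0.25 in KO and −0.11 ± 0.25 in WT, and Cenpe, at 0.58 and 0.32, did not pass either.

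In the spindle checkpoint, Mad2l1 rose in both genotypes and Bub3 in WT. Mad2l1, which encodes the checkpoint protein that holds Cdc20, had 85.7, 99.8 and 62.0 CPM in allogeneic KO, 85.6, 53.2 and 59.5 in allogeneic WT, 59.5, 49.8 and 48.4 in syngeneic KO and 36.6, 44.8 and 45.4 in syngeneic WT. It rose by 0.65 ± 0.20 in KO (edgeR adjusted p = 0.0299) and 0.65 ± 0.20 in WT (adjusted p = 0.0248). Bub3, the adaptor of the checkpoint kinases, had 168, 170.2 and 114 CPM in allogeneic KO, 155, 115 and 112 in allogeneic WT, 135, 108 and 104 in syngeneic KO and 92.9, 86.1 and 91.3 in syngeneic WT; it rose in WT, by 0.50 ± 0.17 (edgeR adjusted p = 0.0398), and had 0.38 ± 0.17 in KO (adjusted p = 0.121). Bub1, Bub1b and Ttk, the kinases and pseudokinase of the checkpoint, had log2 fold changes of 0.51, 0.36 and 0.48 in KO and 0.17, 0.37 and 0.41 in WT, with no call. Bub1b, with the highest CPM of the checkpoint genes, had 199.9, 124 and 128 CPM in allogeneic KO, 141, 114 and 123 in allogeneic WT, 118, 114 and 118 in syngeneic KO and 86.9, 91.8 and 112 in syngeneic WT.

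Cdc20, the activator of the anaphase-promoting complex, had 147, 116 and 85.3 CPM in allogeneic KO, 124, 80.9 and 83.7 in allogeneic WT, 87.5, 75.2 and 80.5 in syngeneic KO and 49.6, 53.3 and 65.8 in syngeneic WT. It rose in WT, where the groups did not overlap, by 0.77 ± 0.20 (edgeR adjusted p = 0.0118), and had 0.52 ± 0.20 in KO (adjusted p = 0.0811), where allogeneic KO replicate 3 lay within the syngeneic KO range. Ube2c, the ubiquitin-conjugating enzyme of the complex, had 189, 137 and 107 CPM in allogeneic KO, 139, 98.5 and 97.5 in allogeneic WT, 96.8, 79.1 and 93.1 in syngeneic KO and 65.6, 92.0 and 105 in syngeneic WT. It rose in KO by 0.68 ± 0.22 (edgeR adjusted p = 0.0410) and had 0.35 ± 0.22 in WT (adjusted p = 0.250).

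Of the mitotic kinases and spindle assembly factors, Hmmr and Dlgap5 rose in KO and none of the 7 in WT. Hmmr, a microtubule-binding protein of the spindle poles, had 97.3, 80.8 and 61.0 CPM in allogeneic KO, 71.6, 47.9 and 58.3 in allogeneic WT, 53.1, 47.3 and 51.5 in syngeneic KO and 36.5, 54.5 and 51.2 in syngeneic WT, and rose in KO by 0.65 ± 0.19 (edgeR adjusted p = 0.0271). Dlgap5, which stabilises microtubules near chromosomes, rose by 0.57 ± 0.19 (edgeR adjusted p = 0.0449). Tpx2, the activator of Aurora A and the gene of this role with the highest CPM, had 241, 155 and 145 CPM in allogeneic KO, 177, 131 and 144 in allogeneic WT, 129.6, 123 and 119.7 in syngeneic KO and 91.5, 116 and 128 in syngeneic WT; its adjusted p was 0.0549 in KO and 0.0986 in WT by edgeR. The kinases Plk1 and Aurka had log2 fold changes of 0.47 and 0.50 in KO and 0.54 and 0.26 in WT. Melk, another kinase, and Nusap1, a microtubule bundler, had 0.26 and 0.39 in KO and 0.43 and 0.09 in WT, with no call.

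In the chromosomal passenger complex, which corrects faulty attachments, Birc5 (survivin) rose in KO. It had 149, 142 and 88.3 CPM in allogeneic KO, 117, 83.2 and 84.7 in allogeneic WT, 86.9, 64.0 and 70.9 in syngeneic KO and 56.4, 74.6 and 81.0 in syngeneic WT, and its log2 fold change was 0.78 ± 0.21 in KO (edgeR adjusted p = 0.0189) and 0.43 ± 0.21 in WT (adjusted p = 0.144). The kinase Aurkb and the scaffold subunits Cdca8 and Incenp had 0.41, 0.51 and 0.33 in KO and 0.37, 0.42 and 0.38 in WT and were not called. Incenp, with the highest CPM of the complex, had 272, 183 and 185 CPM in allogeneic KO, 211, 172 and 168 in allogeneic WT, 163, 162 and 184 in syngeneic KO and 125, 137 and 163 in syngeneic WT.

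Of 5 mitotic kinesins, Kif2c rose in both genotypes and Kif20a in WT. Kif2c, which shortens microtubules at centromeres, had 87.5, 64.3 and 56.1 CPM in allogeneic KO, 70.8, 50.9 and 50.2 in allogeneic WT, 47.0, 42.7 and 42.7 in syngeneic KO and 28.1, 32.7 and 41.8 in syngeneic WT, with log2 fold changes of 0.65 ± 0.19 in KO (edgeR adjusted p = 0.0253) and 0.74 ± 0.19 in WT (adjusted p = 0.00988). Every allogeneic library lay above every syngeneic one. Kif20a, a motor of the central spindle, rose in WT by 0.58 ± 0.18 (edgeR adjusted p = 0.0279) and had 0.42 ± 0.18 in KO (adjusted p = 0.113). Kif11, the motor that pushes spindle poles apart and the kinesin with the highest CPM, had 257, 195 and 182 CPM in allogeneic KO, 195, 139 and 154 in allogeneic WT, 153, 147 and 159 in syngeneic KO and 117, 159 and 159.7 in syngeneic WT. Kif11, Kif23 and Kif4 had log2 fold changes of 0.46, 0.18 and 0.47 in KO and 0.16, 0.08 and 0.34 in WT, with no call.

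Among the cytokinesis genes and transcription factors there was 1 call. Ect2 was the 1 of 4 cytokinesis genes called, higher in allogeneic KO by 0.55 ± 0.18 (edgeR adjusted p = 0.0394). Racgap1, a partner of Ect2 at the central spindle, had 299, 287 and 251 CPM in allogeneic KO, 285, 236 and 208 in allogeneic WT, 263, 208 and 213 in syngeneic KO and 194, 181 and 211 in syngeneic WT, and its log2 fold changes of 0.29 ± 0.14 in KO and 0.32 ± 0.14 in WT did not pass. Prc1, which bundles the midzone, had 0.51 ± 0.18 in KO and 0.10 ± 0.18 in WT. Anln, the scaffold of the contractile ring, had 53.5, 38.9 and 40.9 CPM in allogeneic KO, 42.0, 32.7 and 37.6 in allogeneic WT, 31.6, 42.7 and 45.0 in syngeneic KO and 34.5, 59.3 and 60.8 in syngeneic WT, and the log2 fold change in WT, −0.46 ± 0.21 (edgeR adjusted p = 0.117), was the lowest of the 44 genes there. Without syngeneic WT replicate 1, the fit called Anln lower in allogeneic WT, at −0.68 ± 0.18 (adjusted p = 0.0150). Foxm1 had 151, 79.7 and 114 CPM in allogeneic KO, 104, 111 and 103 in allogeneic WT, 75.6, 99.5 and 111 in syngeneic KO and 78.1, 82.8 and 105 in syngeneic WT, with log2 fold changes of 0.27 ± 0.21 in KO and 0.26 ± 0.21 in WT, and Mybl2 had 0.17 ± 0.19 and 0.07 ± 0.19. Neither of these factors passed the test.

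Mki67 and Top2a, the 2 genes with the highest levels per kilobase, passed in neither comparison. Mki67 had 1916, 896 and 1435 CPM in allogeneic KO, 1244, 1198 and 1239.8 in allogeneic WT, 939, 1154 and 1174 in syngeneic KO and 1024, 1727 and 1725 in syngeneic WT. Syngeneic WT replicates 2 and 3 exceeded every allogeneic WT library, and the log2 fold change was −0.28 ± 0.25 in WT (edgeR adjusted p = 0.420) and 0.38 ± 0.25 in KO (adjusted p = 0.300). Top2a had 919.9, 717 and 611 CPM in allogeneic KO, 655, 455 and 568 in allogeneic WT, 772, 661 and 657 in syngeneic KO and 544, 603 and 661 in syngeneic WT, with 0.10 ± 0.17 in KO, the lowest of the 44 genes there, and −0.11 ± 0.17 in WT. Across the 44 genes the log2 fold change fell with exon length in WT, at a correlation of −0.50, against −0.15 over 8321 coding genes. In KO the correlation was −0.28, against −0.15. Mki67, Cenpf, Anln and Top2a, with 10061, 15433, 9063 and 9013 exonic bases, were 4 of the 5 genes below 0 in WT. The other was Spc25, with 3188. Mad2l1 and Bub3, with 8390 and 7006 exonic bases, were called higher in WT. The part of length in these values was not tested.

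Cdc25b, Cenpa, Ccnb2 and Cdc25c kept their call in both genotypes under every alternative fit that was run, and Kif2c did so in WT. The other calls rested in part on single libraries. Without allogeneic KO replicate 1, or without syngeneic KO replicate 2 or 3, the KO comparison called 4 genes instead of 13. Over all tested genes these fits called 2045 of 19069, 1620 of 19014 and 1795 of 18973 higher. Without allogeneic KO replicate 3 the KO comparison called 28 of the 44, where 2912 of 18863 tested genes were called higher. Without allogeneic WT replicate 1 the WT comparison called 5 instead of 9, where 2312 of 18894 tested genes were called higher. Markers of cell types were called in these comparisons as well. Over all tested genes, 13.2% were called higher and 11.2% lower in KO, and 16.4% higher and 15.9% lower in WT. Of 18 erythroid markers, 2 were called lower in allogeneic KO (11.1%, median log2 fold change −0.55) and 17 lower in allogeneic WT (94.4%, median −5.08). Of 8 NK cell markers, 5 were called higher and 3 lower in allogeneic KO, and 4 higher and 3 lower in allogeneic WT. The platelet sums given above were higher in allogeneic than in syngeneic libraries in both genotypes, with no overlap. The platelet markers did not all follow their sum. Of 8 tested, 1 was called higher and 0 lower in allogeneic KO (median log2 fold change 0.06). In allogeneic WT 1 of them was called higher and 2 lower, with a median of −1.03. Of 19 myeloid markers tested, 3 were called higher in allogeneic KO (15.8%), and 1 higher (5.26%) and 9 lower (47.4%) in allogeneic WT. Of 18 B cell markers tested, 4 were called higher (22.2%) and 1 lower (5.56%) in allogeneic KO, and 5 lower (27.8%) in allogeneic WT. Of 16 T cell markers, 1 was called higher and 1 lower in allogeneic KO (6.25% each, median log2 fold change 0.30). In allogeneic WT 4 of them were called higher (25.0%) and 1 lower (6.25%), with a median of 0.36. The part of these cells, or of T cell content, in the results was not tested. The counting is not stated to use strand, and 11 of the genes share exon bases with a gene on the opposite strand, from which their reads cannot be told apart. For the genes called here or in the blocked fit below these are Kif20a (1271 bases, with Cdc23), Cdc25c (623, with Gm3550), Ube2c (592, with Tnnc2), Ccna2 (510, with Exosc9), Plk1 (156, with Gm44985), Cdc25b (92, with Spef1) and Cdc20 (53, with Elovl1).

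The comparisons of KO with WT asked what the loss of Wapl changed under each kind of transplantation. No gene of the list passed the test in either in the fit of all 12 libraries, while a fit of the syngeneic libraries paired by replicate number, given below, called 4. In allogeneic recipients all 44 genes were higher on average in KO (55.1% of all tested genes were), by log2 fold changes of 0.11 to 0.53. In syngeneic recipients 37 of 44 were (57.0% of all tested genes), with values from −0.45 for Mki67 to 0.53 for Cdc20. The largest in allogeneic recipients was Cdk1, at 0.53 ± 0.24 (edgeR adjusted p = 0.963), and the smallest Foxm1, at 0.11 ± 0.21.

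**Figure D5:**
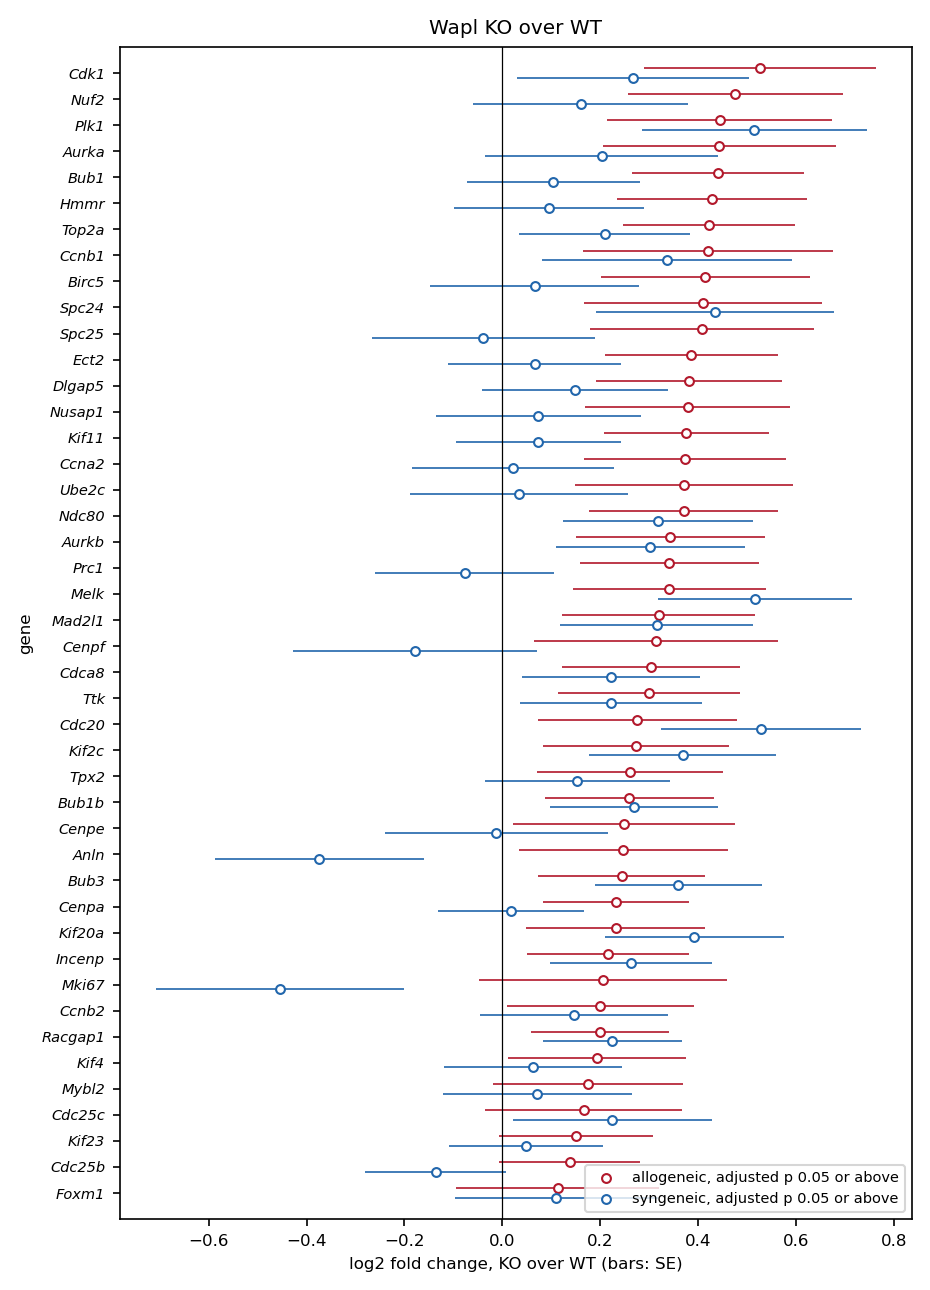
Log2 fold change of KO over WT (horizontal axis, bars are SE) for the 44 genes in allogeneic (red) and syngeneic (blue) recipients, sorted by the allogeneic value. All points are open, since no gene had an edgeR adjusted p under 0.05 in the fit of all 12 libraries, which has no replicate block; the allogeneic values run from 0.11 to 0.53 and the syngeneic values from −0.45 to 0.53.

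In allogeneic recipients edgeR called 0 of the 44 genes in either direction, where it called 0.0434% of all tested genes higher and 0.0108% lower. DESeq2 also called 0, with 0.163% of all genes called higher and 0.255% lower. At an unadjusted p under 0.05 there were 6 genes, all higher in KO (Bub1, Top2a, Kif11, Cdk1, Hmmr and Ect2), against 4.18% of all tested genes in either direction. The median log2 fold change was 0.32, against 0.03 over all tested genes. For none of the 44 genes did all 3 KO libraries lie above all 3 WT libraries (3.29% of all tested genes did). The size of the median moved with single libraries: it was 0.14 without allogeneic KO replicate 1, with 36 genes positive, 0.21 without allogeneic WT replicate 2 and 0.48 without allogeneic WT replicate 1, with all 44 positive in the last 2 cases. Cdk1 had 132, 119 and 69.1 CPM in allogeneic KO against 97.2, 58.4 and 66.7 CPM in allogeneic WT, where replicate 3 of KO lay within the WT range.

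In syngeneic recipients edgeR called 0 of the 44 genes in the fit of all 12 libraries, where it called 0.743% of all tested genes higher and 2.63% lower. DESeq2 called 0 as well, with 1.46% of all genes called higher and 4.05% lower. There were 3 genes at an unadjusted p under 0.05, all higher in KO, against 14% of all tested genes in either direction. They were Melk, Cdc20 and Plk1. Melk had 36.9, 30.7 and 32.6 CPM in syngeneic KO against 20.5, 23.0 and 26.6 in syngeneic WT, Cdc20 87.5, 75.2 and 80.5 against 49.6, 53.3 and 65.8, and Plk1 95.3, 98.8 and 107 against 57.3, 68.1 and 85.8. In each of these the KO libraries lay above the WT libraries, with log2 fold changes of 0.52 ± 0.20, 0.53 ± 0.20 and 0.51 ± 0.23 and adjusted p of 0.251, 0.255 and 0.343 by edgeR. The libraries did not overlap for 11 of the 44 genes, all higher in KO (25.0%, and 13.2% of all tested genes): these also included Kif20a, Bub3, Kif2c, Spc24, Mad2l1, Aurkb, Bub1b and Ccnb1. The median log2 fold change was 0.15, against 0.06 over all tested genes, with 37 genes positive. It was 0.03 without syngeneic WT replicate 1 (24 genes positive), 0.09 without syngeneic KO replicate 1 (32 positive) and 0.27 without syngeneic WT replicate 3 (40 positive).

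The labels state no pairing of libraries, and the deviations set only the syngeneic libraries numbered 1 apart as a pair. With the replicate number as a block, a fit of the 6 syngeneic libraries called 4 genes, where every other fit run for this comparison called 0. Cdc20 was higher in KO by 0.50 (edgeR adjusted p = 0.0235), Plk1 by 0.49 (adjusted p = 0.0160) and Melk by 0.48 (adjusted p = 0.0490). Mki67 was lower in KO, with a log2 fold change of −0.46 (adjusted p = 0.0417), at 939, 1154 and 1174 CPM in syngeneic KO against 1024, 1727 and 1725 in syngeneic WT. Under that fit 2.16% of all genes tested were called higher and 5.13% lower. Mki67 and Anln (−0.37 ± 0.21) were the 2 lowest values of the comparison, and over the 44 genes the log2 fold change fell with exon length at a correlation of −0.50, against −0.17 over 8321 coding genes. Markers of other cells moved with the same contrast: in syngeneic KO 14 of 18 erythroid markers were called lower (median log2 fold change −4.57), 9 of 19 myeloid (median −2.99), 3 of 18 B cell (median −0.60) and 2 of 8 platelet markers (median −1.88), and none was called higher. Of 16 T cell markers 0 were called in this contrast, with a median log2 fold change of 0.29. The part of any of these markers in these values was not tested. Syngeneic WT replicate 1 had the lowest summed level of the 44 genes in its group. It also had the lowest erythroid, myeloid and B cell sums of its group and the highest T cell, NK cell and platelet sums.

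Whether the effect of the genotype differed between allogeneic and syngeneic recipients was tested with an interaction term. It called 0 of the 44 genes (edgeR, where 0.428% of all tested genes were called higher and 0.0488% lower), and none had an unadjusted p under 0.05 (6.2% of all tested genes did). DESeq2 called 0 too, with 1.32% of all genes called higher and 0.271% lower. The largest value was that of Mki67, at 0.66 ± 0.36 (edgeR adjusted p = 0.958), followed by Anln at 0.62 ± 0.30 (adjusted p = 0.853). Over the 44 genes the interaction correlated with exon length at 0.41, against 0.06 over 8321 coding genes, and 7 of 18 erythroid markers were called higher in it (median 4.59); the part of either in these values was not tested. The median of the 44 genes was 0.12 (−0.03 over all tested genes), with 33 positive (75.0%, and 46.1% of all tested genes). The median of the 44 was −0.03 without allogeneic KO replicate 1, 0.01 without syngeneic WT replicate 3 and 0.05 without allogeneic WT replicate 2. It was 0.22 and 0.25 without allogeneic KO replicates 2 and 3, 0.26 without allogeneic WT replicate 1 and 0.26 without syngeneic WT replicate 1.

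Neighbouring gene lists of the cell cycle were described in the same fit, each by its count and median, with no test between lists. The shares of all tested genes to set beside these counts are 13.2% called higher and 11.2% lower in allogeneic KO over syngeneic KO, and 16.4% higher and 15.9% lower in allogeneic WT over syngeneic WT. Of 46 other mitotic spindle and cytokinesis genes, 13 were called higher and 0 lower in allogeneic KO over syngeneic KO, and 12 higher and 2 lower in allogeneic WT over syngeneic WT, with median log2 fold changes of 0.44 and 0.30. Cep55, a midbody protein of abscission, had 46.8 ± 9.35 CPM in allogeneic KO against 29.1 ± 2.78 in syngeneic KO, and 36.5 ± 5.95 in allogeneic WT against 20.0 ± 1.50 in syngeneic WT. It rose by 0.69 ± 0.16 in KO (edgeR adjusted p = 0.00721) and 0.87 ± 0.16 in WT (adjusted p = 0.00125). Knstrn, a kinetochore-bound spindle protein, and Pttg1 (securin), the inhibitor of separase, rose by 0.71 and 0.60 in KO and 0.67 and 0.68 in WT. Of 32 other centromere and kinetochore genes, 1 was called higher and 0 lower in KO, and 2 higher and 1 lower in WT. Ska3, of the complex that couples kinetochores to microtubules, rose in both (0.55 ± 0.17 and 0.52 ± 0.17), Cenpb rose in WT (0.64 ± 0.13) and Kntc1 fell in WT (−0.68 ± 0.17).

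Subunits of the anaphase-promoting complex itself were called higher in 4 of 15 cases in allogeneic KO and 5 of 15 in allogeneic WT, and none was called lower. Cdc27, a core subunit, had 92.0 ± 3.71 CPM in allogeneic KO against 57.1 ± 3.34 in syngeneic KO, and 80.8 ± 2.60 in allogeneic WT against 60.2 ± 6.07 in syngeneic WT. It rose by 0.69 ± 0.10 in KO (edgeR adjusted p = 0.000287) and 0.43 ± 0.10 in WT (adjusted p = 0.00583). Anapc16, a small subunit, rose by 0.82 ± 0.18 and 0.77 ± 0.18. Of 52 genes of S phase, 2 were called higher (3.85%) and 1 lower (1.92%) in KO, and 2 higher (3.85%) and 4 lower (7.69%) in WT, shares below those over all tested genes, with medians of 0.07 and −0.05. Rpa2, a subunit of the single-strand binding complex, rose by 0.90 ± 0.16 in KO and 0.98 ± 0.16 in WT, while Ung, the uracil-DNA glycosylase, fell in both (−0.94 ± 0.16 and −0.73 ± 0.16). Cdc7, the kinase that fires replication origins, fell in WT (−0.50 ± 0.12). Between KO and WT no gene of S phase, of the anaphase-promoting complex or of the other mitotic and kinetochore lists was called in either kind of recipient. There the S phase medians were 0.30 in allogeneic and 0.23 in syngeneic recipients, beside 0.32 and 0.15 for the 44 mitotic genes.

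The DREAM and retinoblastoma complexes, which keep the mitotic genes silent in resting cells, were called about as often as all tested genes, or less, between allogeneic and syngeneic libraries. Of 18 genes, 2 were called higher (11.1%) and 1 lower (5.56%) in allogeneic KO over syngeneic KO, and 2 higher (11.1%) and 3 lower (16.7%) in allogeneic WT over syngeneic WT. Rbl2 (p130), the pocket protein of DREAM, had 237 ± 17.5 CPM in allogeneic KO against 112 ± 7.74 in syngeneic KO, and 222 ± 5.35 in allogeneic WT against 99.3 ± 6.88 in syngeneic WT. It rose by 1.09 ± 0.10 in KO (edgeR adjusted p = 0.0000106) and 1.16 ± 0.10 in WT (adjusted p = 0.00000407), while the activator E2f1 fell in both, with log2 fold changes of −0.51 ± 0.13 and −0.55 ± 0.13. Between KO and WT in syngeneic recipients, Tfdp2, a partner of E2F factors, fell to 19.4 ± 4.36 CPM in syngeneic KO, against 84.2 ± 31.5 in syngeneic WT (−2.12 ± 0.27, edgeR adjusted p = 0.000976), and E2f2, an activator E2F, fell as well (−0.64 ± 0.15). Tfdp2 was also the 1 gene of these lists with a called interaction (2.05 ± 0.37, edgeR adjusted p = 0.0347). Erythroid and myeloid markers were lower in the same contrast as Tfdp2, with the counts given above, and their part was not tested.

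Genes that brake entry into mitosis, 16 in all, had 1 called higher and 0 lower in allogeneic KO over syngeneic KO, and 3 higher and 2 lower in allogeneic WT over syngeneic WT. Ppp2r2d, the phosphatase subunit that counters Cdk1, rose by 0.47 ± 0.13 in KO and 0.47 ± 0.13 in WT. Cdkn1a (p21), an inhibitor of cyclin-dependent kinases, rose in allogeneic WT by 1.17 ± 0.23 (edgeR adjusted p = 0.00209). It also rose in syngeneic KO over syngeneic WT, at 10.4 ± 1.80 CPM in syngeneic KO against 5.12 ± 1.43 in syngeneic WT (1.02 ± 0.23, adjusted p = 0.0309). Gadd45a, a stress-induced gene that restrains Cdk1, fell in syngeneic KO, at 1.82 ± 0.482 CPM against 9.73 ± 3.35 in syngeneic WT (−2.42 ± 0.35, edgeR adjusted p = 0.00203), and in allogeneic WT (−2.35 ± 0.35, adjusted p = 0.000251), again alongside the erythroid and myeloid markers. Chek1, the checkpoint kinase that holds Cdc25 in check, fell in allogeneic WT (−0.62 ± 0.16, adjusted p = 0.00883). No gene of these 6 lists was called between allogeneic KO and allogeneic WT.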

How the data were processed

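Total RNA was depleted of ribosomal RNA and sequenced, 100 ng per library, per the labels. The deposited values are expected counts for each gene; per the submitters' processing notes, the tools were TopHat2 2.0.13, Bowtie2 2.2.1, Cufflinks and Cuffdiff 2.2.1 with the build GRCm38, and the counting step, annotation and strand setting are not given in the sources used here. Between 94.5 and 95.0% of values per library were whole, and all were rounded before the fit. Columns of 12 of 18 samples matched their labels by name; 6 columns matched none and were not used, and the naive samples were not analysed here. Syngeneic KO libraries were grouped by transplant type.

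A single model of group means was fitted to the 12 libraries in edgeR 4.0.16 (with limma 3.58.1 under R 4.3.3), using TMM scaling, filterByExpr (count minimum 10) and a robust quasi-likelihood fit (8 residual degrees of freedom). The model was also run on simulated counts, drawn for each gene separately. That run does not cover the correlation between genes described above. SE is the log2 fold change over the square root of F. Libraries differ in ribosomal RNA counts (16.1 to 18.0% in allogeneic KO, 8.27 to 17.8% in allogeneic WT, 24.0 to 32.1% in syngeneic KO, 20.2 to 23.1% in syngeneic WT). Nothing says that libraries came from separate donors, so p values measure the spread between these pools. Alternatives were median-of-ratios scaling, DESeq2 1.42.0, no filter, ribosomal RNA genes removed, only the groups compared, a replicate block and each library left out. The deviations of same-numbered syngeneic libraries correlated at r = 0.545, 0.170 and 0.335 for numbers 1, 2 and 3. Syngeneic KO 3 with syngeneic WT 2 was at 0.363, and syngeneic KO 2 with syngeneic WT 3 at 0.114. These values set number 1 apart and do not settle how numbers 2 and 3 pair. The labels state no pairing. The numbers were taken to pair the libraries in the blocked fit of the syngeneic libraries alone. In another alternative the number was a block over all 4 groups, and the main fit paired no libraries. Promoter sequences are from RefSeq, and exon lengths and overlaps from GENCODE M21.

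Named with values per library are, per role, the gene with the highest level, the 2 largest and 2 smallest changes between allogeneic and syngeneic libraries and called genes; from the other lists, up to 3 genes with the smallest p. Further genes were named after their values were seen. The members and lists were chosen with earlier results of these data known.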

Additional observations from a re-analysis of the deposited data

How the results depend on the processing

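The allogeneic over syngeneic counts varied most. In KO, where 13 of the 44 genes were called, DESeq2 called 21 and leaving out a single library gave 4 to 28. In WT, where 9 were called, the fit of only the 2 groups compared called 14 and leaving out a library gave 5 to 10. Over all tested genes, leaving out a library gave 1620 to 3277 called higher in KO and 2140 to 2705 in WT. DESeq2 called 3004 of 18447 genes higher in KO, and the fit of only the 2 groups called 3990 of 17683 higher in WT. With the replicate block over all 4 groups the counts were 10 in KO and 9 in WT, and over all 18447 genes 2523 and 3137 were called higher. That block called none of the 44 genes in the comparisons of KO with WT or the interaction. In the 6 syngeneic libraries alone the replicate block called 4 genes where the fit of 12 libraries called 0. Over all 17656 genes of that fit, 382 were called higher and 905 lower. Leaving out each library called 0 in KO over WT and in the interaction. With ribosomal RNA genes removed, which makes the denominator smaller, the mean summed level was 8521 CPM in allogeneic KO, 7052 in allogeneic WT, 6240 in syngeneic KO and 6439 in syngeneic WT. Within 100 bases before to 50 after the start, TTTGAA stood in 68.4% of the mitotic windows and 8.00% of all, and CCAAT in 68.4% and 23.4%. No called gene changed sign under any alternative run. With 3 libraries per group, a p above the threshold does not show that a gene did not differ.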
